A study of Danio rerio with 8 samples.

Results

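The genes described are zfp36l1a, zfp36l1b, zfp36l2, btg1, btg2, gadd45ba and gadd45bb, 7 of the 19914 features of the deposited table, chosen by their symbols as early response genes of mRNA decay and growth arrest. Each symbol occurred once in the table, and the choice was made with earlier results of these data known. Cells came from the flank dermis of untreated adult zebrafish that carried pnp4a:palmmCherry and pnp4a:nlsEos, both under control of the pnp4a promoter, active in iridophores, and all groups share these reporters. Skin was microdissected into dark and light regions of the pattern (stripe and interstripe), and each was digested on its own with Liberase for 15 min at 25°C before cells with high signal of both reporters were sorted into plates, 4 dark and 4 light. The study used 4 fish and pooled skin of different fish within each processing cycle, so there were fewer cycles than fish. Since the regions were handled apart, region and handling cannot be told apart, and plates and cycles are not separated in the table. The 646 cells of the table fall into 5 clusters, c1 to c5, with 194, 176, 122, 82 and 72 cells. By the study's account, c1, c3 and c5 are iridophores, c5 is mostly from stripes, c3 is mostly from interstripes, and c1 is from both.

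ZFP36 proteins carry zinc fingers that bind AU-rich stretches near the end of an mRNA and bring the CCR4-NOT deadenylase, which shortens the poly(A) tail and so exposes the mRNA to decay. BTG proteins bind the deadenylase subunits of the same complex and are known in mammals for holding back cell division. GADD45 proteins are small stress-induced proteins that in mammals bind the kinase MAP3K4 and feed the p38 and JNK pathways. Genes of these families are transcribed quickly and briefly after a stimulus in many cell types, and are often read beside the Fos and Jun genes.

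Iridophore markers were found in all 5 clusters and were highest in c1, c3 and c5. gpnmb, which encodes a glycoprotein of pigment organelles, was found in 91.2%, 95.1% and 88.9% of their cells and in 80.1% of c2 and 97.6% of c4 cells. The summed mean of the 5 markers gpnmb, pnp4a, alx4a, alx4b and tfec was 9.40, 10.0 and 8.32 in c1, c3 and c5, against 5.03 in c2 and 6.42 in c4. Cells of c4 had a value above 0 for 1395 genes on average, whereas the other clusters had 739.6 to 846.1. Of 13 immune genes, none was found in 10% of the cells of c1, c2 or c3, and 1, coro1a, was in c4 (18.3%) and c5 (13.9%). Of 7 endothelial and 2 erythrocyte genes, none reached 10% in any cluster. Of 12 keratinocyte genes, krt8 was found in 79.4 to 98.8% of cells of each cluster, and the basal gene krt5 in at most 2.46%. Of these 12 genes, 4 were found in at least 10% of c4 cells and 2 in c2, against 1 in each of c1, c3 and c5. Of 8 melanophore genes only trpm1b was found in 10% of any cluster (60.7 to 93.9%). Summed means of 9 xanthophore genes were 1.72 in c4 and 1.70 in c2, against 0.55 to 0.92 in c1, c3 and c5. Those of 12 dermal fibroblast genes were 0.73 to 2.32, highest in c4 and next in c2 (1.56). Summed means of 9 Schwann and neural crest genes were 1.05 to 2.1, highest in c5. sox10, which pigment cells also express, was found in 31.9% of c5, 57.3% of c4 and 20.5 to 27.3% of the other cells by cluster. The part of other cell types in the values below was not tested.

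The genes fall into a widely found and a rarely found group. btg2, btg1, gadd45ba and zfp36l1b were found in 341, 267, 261 and 181 of the 646 cells, while zfp36l2, zfp36l1a and gadd45bb were found in 47, 19 and 6. The first 4 passed a filter of at least 10% of all cells, which 1467 features passed, and the other 3 did not. Every mean below is over all cells of a cluster, on the scale of the natural log of the depth-corrected count plus 1, with cells lacking the gene at 0, unless it is said to be over expressing cells. An SD is over cells of pooled plates and is not an error between fish. Cells are not replicates, and the clusters were drawn from these same values, so differences between clusters are described with no test. Intervals on shares cover counting error only, and how often they fail to overlap over all features was not counted. In c4, 1460 of the 1467 features had a larger share than in c1, c3 and c5 pooled.

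**Figure D1:**
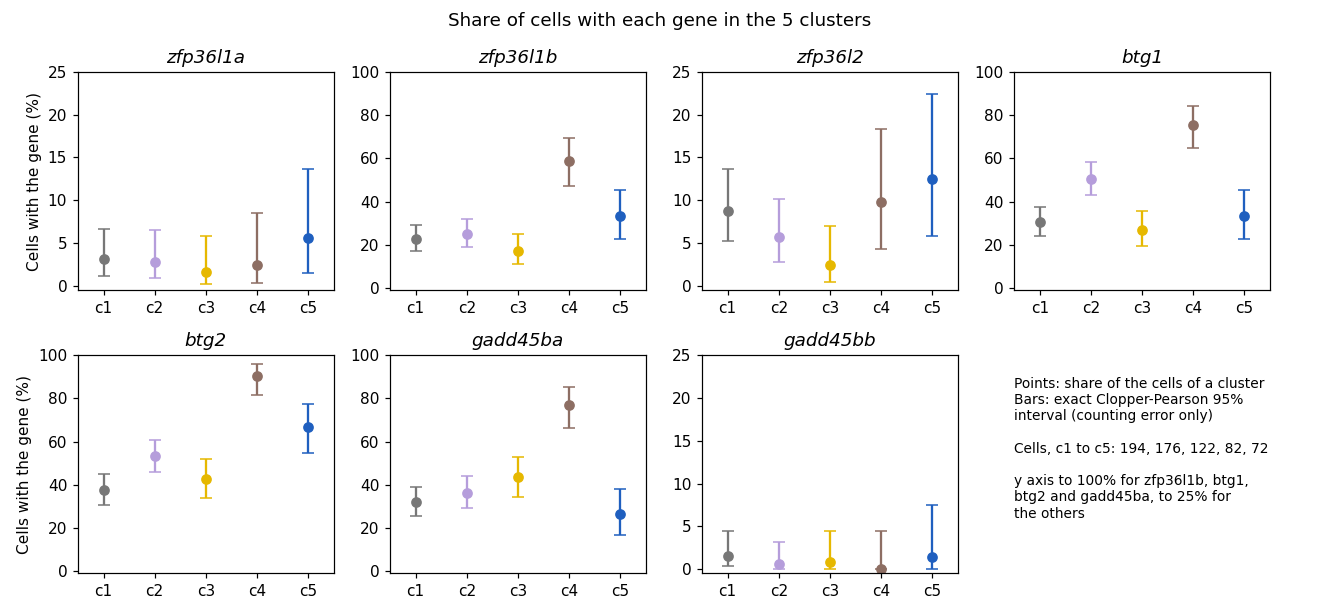
Share of the cells of each cluster (y axis, percent) with each of the 7 genes, by cluster (x axis), where points are shares and bars exact 95% intervals. zfp36l1b, btg1, btg2 and gadd45ba have their highest share in c4, at 58.5 to 90.2%, and btg2 stands at 66.7% in c5 against 42.6% in c3.

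btg2 (ENSDARG00000020298), which encodes an antiproliferative partner of the deadenylase and is a p53 target in mammals, had its highest mean in c5. It was found in 73 of 194 cells of c1 (37.6%, exact 95% interval 30.8 to 44.9%), 94 of 176 of c2 (53.4%, 45.8 to 60.9%), 52 of 122 of c3 (42.6%, 33.7 to 51.9%), 74 of 82 of c4 (90.2%, 81.7 to 95.7%) and 48 of 72 of c5 (66.7%, 54.6 to 77.3%). The mean was 1.08 ± 1.64 in c1, 0.82 ± 1.13 in c2, 1.21 ± 1.70 in c3, 1.39 ± 1.1 in c4 and 2.33 ± 1.90 in c5 (SD over cells). The interval of the share in c5 lay above those of c1 and c3, overlapped that of c2 and lay below that of c4. How many other features have intervals apart in this way was not counted, and the clusters were drawn from these same values. Over expressing cells the mean was 3.50 in c5, 2.87 in c1 and 2.83 in c3, but only 1.53 in c2 and 1.55 in c4. Taken back from the log, these are 32.1, 16.6, 16.0, 3.64 and 3.69 corrected transcripts per expressing cell. Each is the geometric mean of the count plus 1, with the 1 then taken off. In c5, btg2 ranked 71st among the 19914 features by mean, and it ranked 144th to 214th in the other clusters.

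btg1 (ENSDARG00000027249), the paralog with the same partners, differed less among the iridophore clusters. Its share was 30.4% in c1 (24.0 to 37.4%), 27.0% in c3 (19.4 to 35.8%) and 33.3% in c5 (22.7 to 45.4%), with overlapping intervals, and it was higher in c2 at 50.6% (42.9 to 58.2%) and in c4 at 75.6% (64.9 to 84.4%). The means were 0.77 ± 1.38, 0.71 ± 1.35 and 1.05 ± 1.68 in c1, c3 and c5, and 0.97 ± 1.42 and 1.07 ± 1.11 in c2 and c4 (SD over cells). Over expressing cells the order was another, with 3.15 in c5, 2.62 in c3, 2.52 in c1, 1.91 in c2 and 1.41 in c4. Thus c4 had the largest share of btg1 cells and the lowest level in them, as for most features. Against c1, c3 and c5 pooled, 1460 of the 1467 features had a larger share in c4. The level over expressing cells was lower in c4 by at least 0.5 for 88.3% of them.

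zfp36l1b (ENSDARG00000021443), a zinc finger gene of mRNA destabilization, was found in 22.7% of c1 cells (17.0 to 29.2%), 25.0% of c2 (18.8 to 32.1%), 17.2% of c3 (11.0 to 25.1%), 58.5% of c4 (47.1 to 69.3%) and 33.3% of c5 (22.7 to 45.4%). Its mean was 0.67 ± 1.37, 0.37 ± 0.84, 0.33 ± 0.87, 0.68 ± 0.94 and 0.91 ± 1.51 in c1 to c5 (SD over cells). The interval of c4 lay above all others, and those of c1, c2, c3 and c5 overlapped one another. Over expressing cells the mean was 1.93 ± 1.16 in c3 (21 cells), 2.96 ± 1.22 in c1 (44 cells) and 2.74 ± 1.35 in c5 (24 cells, SD over expressing cells). Taken back from the log, these are 5.90, 18.4 and 14.5 corrected transcripts, as geometric means of the count plus 1, less 1. A larger difference of this kind was seen in 7.02% of features for c5 minus c3 and in 0.409% for c1 minus c3.

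gadd45ba (ENSDARG00000027744), a stress-induced gene of the GADD45 family, had its highest mean in c3 rather than c5. Its mean was 1.16 ± 1.51 in c3, 1.06 ± 1.12 in c4, 0.77 ± 1.37 in c1, 0.70 ± 1.34 in c5 and 0.55 ± 0.98 in c2 (SD over cells). It was found in 43.4% of c3 cells (34.5 to 52.7%), 26.4% of c5 (16.7 to 38.1%), 32.0% of c1 (25.5 to 39.0%), 36.4% of c2 (29.3 to 43.9%) and 76.8% of c4 (66.2 to 85.4%). The intervals of c1, c2, c3 and c5 overlapped one another, and that of c4 lay above them. Nearly all features had a larger share in c4 (1460 of 1467, against c1, c3 and c5 pooled). The level over expressing cells was nearly the same in c3 and c5, at 2.68 and 2.66.

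For each of these 4 genes, means that neighboured each other in the order of the clusters differed by less than 1 SD over cells. Neighbours have the smallest gaps of an order, so this does not bear on clusters further apart. For btg2 the ends of the order were 2.33 ± 1.90 in c5 and 0.82 ± 1.13 in c2 (SD over cells). The orders were c5, c4, c3, c1, c2 for btg2, c4, c5, c2, c1, c3 for btg1, c5, c4, c1, c2, c3 for zfp36l1b and c3, c4, c1, c5, c2 for gadd45ba.

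**Figure D2:**
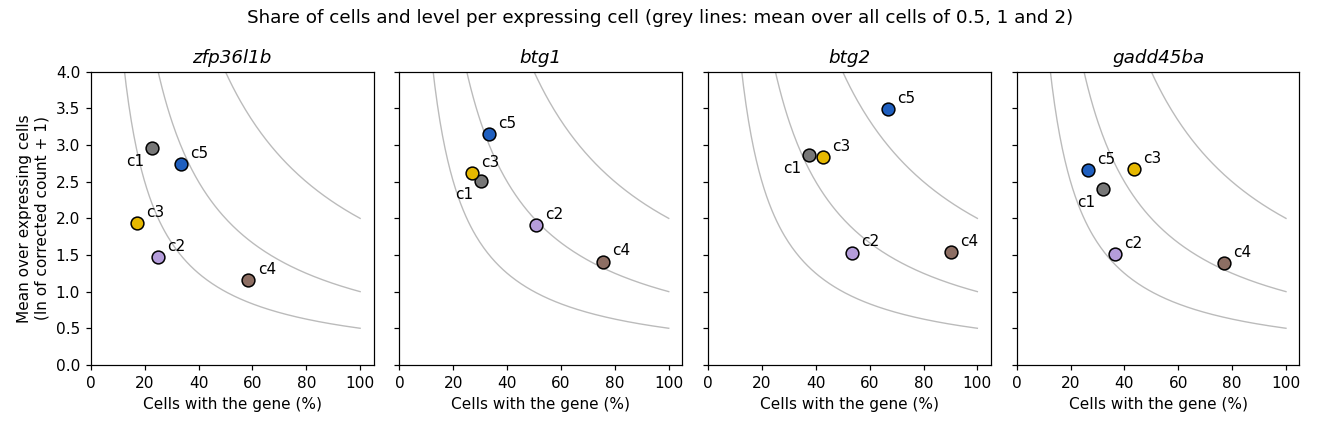
Mean over expressing cells (y axis, natural log of the corrected count plus 1) against the share of cells (x axis, percent) for the 4 widely found genes, with a point for each cluster and grey lines where the mean over all cells is 0.5, 1 and 2. Cluster c4 lies at the lower right in all 4 panels, and c5 lies highest for btg1 and btg2.

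The 3 rarely found genes gave few cells per cluster. zfp36l2 (ENSDARG00000021806), another ZFP36 family gene, was found in 17 cells of c1 (8.76%, 5.19 to 13.7%), 10 of c2 (5.68%, 2.76 to 10.2%), 3 of c3 (2.46%, 0.510 to 7.02%), 8 of c4 (9.76%, 4.31 to 18.3%) and 9 of c5 (12.5%, 5.88 to 22.4%). The mean was 0.30 in c5 and 0.040 in c3, with 0.15, 0.15 and 0.19 in c1, c2 and c4. All 5 intervals overlapped their neighbours in order, and those of c5 and c3 overlapped too. The 3 cells of c3 held 1, 1 and 30 corrected transcripts, so 1 cell carried most of the zfp36l2 of c3.

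zfp36l1a (ENSDARG00000016154), the paralog of zfp36l1b, was found in 6, 5, 2, 2 and 4 cells of c1 to c5, or 3.09%, 2.84%, 1.64%, 2.44% and 5.56%, with overlapping intervals. Where it was found it could be abundant. The 6 cells of c1 held 1, 1, 8, 22, 66 and 82 corrected transcripts and the 2 cells of c3 held 13 and 142, while the 5 cells of c2 held 3, 5, 8, 9 and 12 and the 2 of c4 held 6 and 8. The paralogs thus differed in reach, with zfp36l1b in 28.0% of all cells (24.6 to 31.7%) and zfp36l1a in 2.94% (1.78 to 4.56%). How reads shared by such paralogs were counted was not examined.

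gadd45bb (ENSDARG00000013576), the paralog of gadd45ba, was found in 3 cells of c1, in 1 each of c2, c3 and c5, and in 0 of 82 cells of c4. For c4, 3 counts in 82 cells would be 3.66%, and the exact 95% interval reaches 4.40%, both of which limit the cells in which the gene is detected and not those that express it. The 3 cells of c1 held 1, 1 and 56 corrected transcripts, that of c3 held 7, and those of c2 and c5 held 1 each. It was found in 0.929% of all cells (0.342 to 2.01%), against 40.4% (36.6 to 44.3%) for gadd45ba. No difference of gadd45bb between clusters was detectable at these numbers of cells.

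Between c5 and c3, the mostly stripe and mostly interstripe iridophores, btg2 and zfp36l1b were higher in c5 by at least 0.5. None of the 4 widely found genes was lower by as much. With c3 means of 0.33 for zfp36l1b and at most 0.062 for the 3 rarely found genes, these could not have been. Of the 1467 features, 5.93% were higher in c5 and 4.36% lower by at least 0.5. Among the 535 features found in at least 25% of all cells, as all 4 genes were, 13.6% were higher and 9.91% lower. btg2 differed by 1.12, and 13 of the 1467 features had a larger difference. zfp36l1b differed by 0.58, with 67 features above it. btg1 differed by 0.34 and gadd45ba by -0.46, which is just inside the limit, and 73 features had a lower difference than gadd45ba. Markers also passed the limit in this comparison. alx4a and gpnmb, 2 of the 5 iridophore markers, differed by -0.73 and -0.54. trpm1b, the 1 melanophore gene to pass the filter, differed by 0.62. It was found in 60.7 to 93.9% of the cells of each cluster, while no other of the 8 melanophore genes reached 10% in any. The part of these markers in the values of the 7 genes was not tested. Over the 4 genes the median difference was 0.46, against 0.014 over all 1467 features. The genes were chosen with earlier results of these data known and gadd45ba went the other way, so no conclusion is drawn from this median. Among the genes that did not pass the filter, zfp36l2 differed by 0.26, zfp36l1a by 0.070 and gadd45bb by -0.0074.

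The differences divided unevenly into a part from the share of cells and a part from the level per expressing cell. For btg2 these parts were 0.76 and 0.36, and the share was 1.56 times as large in c5 as in c3. For zfp36l1b they were 0.38 and 0.21, with a ratio of shares of 1.94. For btg1 they were 0.18 and 0.16. For gadd45ba nearly all of the difference lay in the share, with parts of -0.45 and -0.0066, and a ratio of shares of 0.61. Over expressing cells alone 3 genes, btg1, btg2 and zfp36l1b, were higher in c5 by at least 0.5, where 20.6% of all features were.

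**Figure D3:**
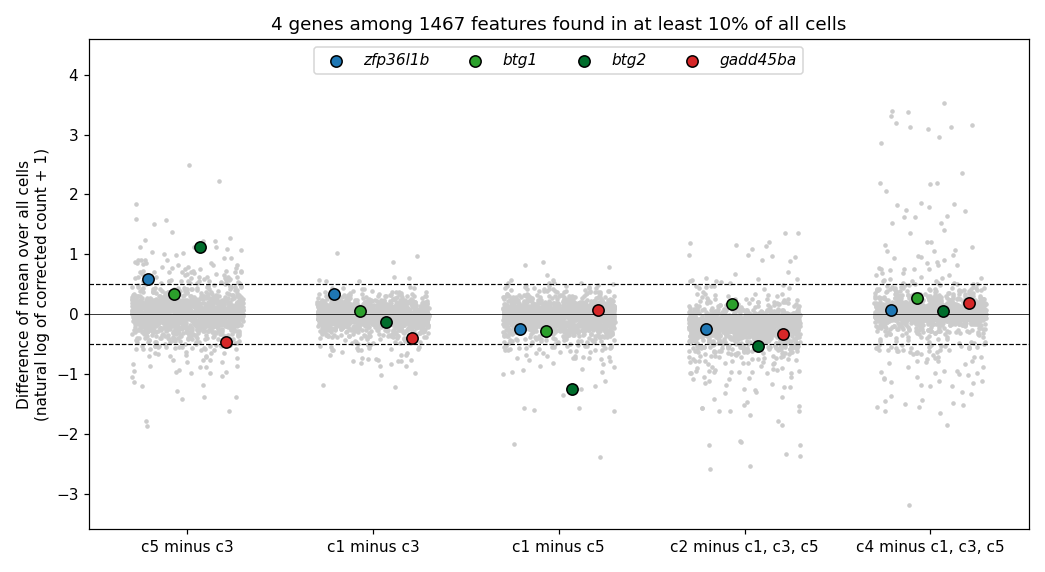
Difference of the mean over all cells (y axis, natural log scale) in 5 comparisons of clusters (x axis), with the 4 widely found genes as coloured points among the 1467 features as grey points and dashed lines at 0.5 and -0.5. btg2 lies at 1.12 for c5 minus c3 and at -1.25 for c1 minus c5, and all 4 genes lie within the dashed lines for c1 minus c3 and for c4.

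Cluster c1, which held cells of both skin regions, was near c3 for btg2 and btg1 and near c5 for gadd45ba. In c1 against c5, btg2 was lower by at least 0.5 with a difference of -1.25, which only 7 features exceeded in that direction, and none of the other genes passed the limit. The background was 4.09% of features lower and 0.750% higher, and among the 535 features found in at least 25% of all cells 10.1% and 1.87%. zfp36l1b, btg1 and gadd45ba differed by -0.24, -0.28 and 0.065. In c1 against c3 none of the 4 passed in either direction, where 0.545% of features were higher and 2.32% lower. Of the 535 features found in at least 25% of all cells, 1.5% were higher and 5.79% lower. zfp36l1b was 0.34 higher in c1, with 23 features above it, and gadd45ba differed by -0.40, with 53 features below it. btg2 and btg1 differed by -0.13 and 0.056. The zfp36l1b difference lay more in the level than in the share, with parts of 0.21 and 0.13. Over expressing cells it was 1.03 higher in c1, and 0.409% of features had a larger difference of this kind. These comparisons share clusters with each other and are not independent.

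In c2 iridophore markers were low. Shares of the 4 widely found genes were larger there than in c1, c3 and c5 pooled, as for 458 of the 1467 features. Levels per expressing cell were lower. The shares of zfp36l1b and gadd45ba were only 25.0% against 22.9% and 36.4% against 34.5%, with the pooled shares inside the c2 intervals. Among single clusters, c5 had a larger share than c2 for zfp36l1b and btg2, and c3 for gadd45ba. Against c1, c3 and c5 pooled, btg2 was lower by at least 0.5 (difference -0.53), and the background was 11.7% of features lower and 1.57% higher. Among the 535 features found in at least 25% of all cells, as all 4 genes were, 32.1% were lower and 4.3% higher. The median over all features was -0.18, and relative to it btg2 stood at -0.36 and no longer passed. btg1 went the other way, with a difference of 0.17, or 0.34 relative to the median, and 67 features had a larger one. Its share was 1.69 times that of the pooled iridophore clusters, where the median ratio over features was 0.84. Over expressing cells all 4 genes were lower in c2 by at least 0.5, with differences of -0.77 for btg1 to -1.50 for btg2, as were 58.8% of features, whose median was -0.65.

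In c4 the 4 widely found genes had 2.02 to 2.55 times the share of the pooled iridophore clusters and much lower levels per expressing cell, and so had nearly all genes. Of the 1467 features, 1460 had a larger share in c4, with a median ratio of 2.42. The ratios were 2.55 for zfp36l1b, 2.53 for btg1, 2.22 for gadd45ba and 2.02 for btg2. Over expressing cells the differences were -1.50, -1.27, -1.16 and -1.49, and the median over features was -1.35. The means over all cells differed by 0.069, 0.27, 0.19 and 0.043, none past 0.5, where 4.70% of features were higher and 5.25% lower. Of the 535 features found in at least 25% of all cells, 8.22% were higher and 14.4% lower. zfp36l2, zfp36l1a and gadd45bb were found in 9.76%, 2.44% and 0% of c4 cells against 7.47%, 3.09% and 1.29% of the pooled cells. With 8, 2 and 0 cells of c4, their intervals in c4 reach 18.3%, 8.53% and 4.40%, so a difference from the other 4 genes was not detectable.

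**Figure D4:**
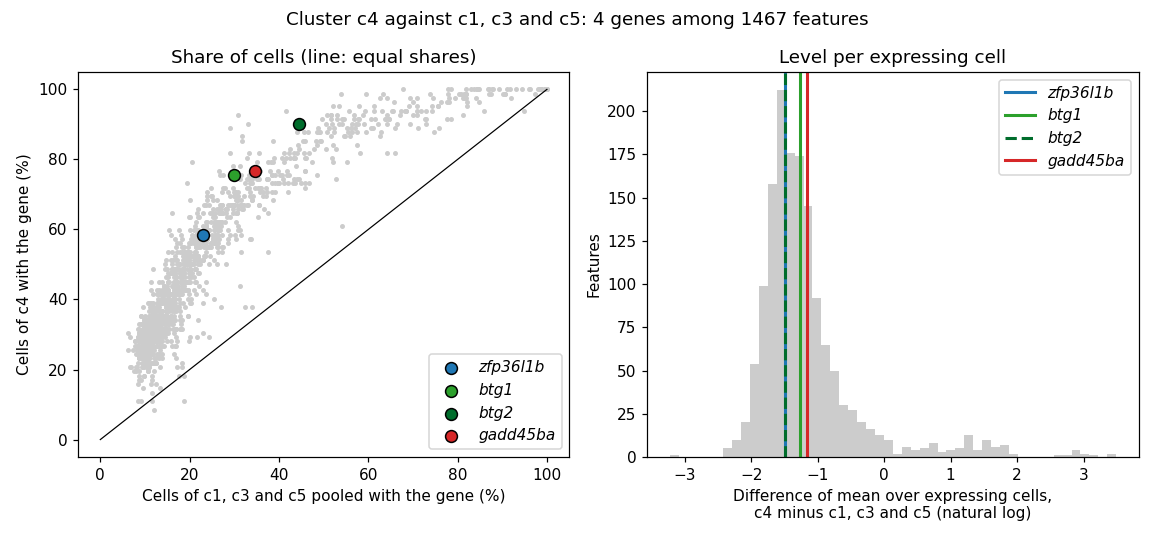
Left, share of c4 cells against share of pooled c1, c3 and c5 cells (both axes in percent) for 1467 features in grey and 4 genes in colour, with a line at equal shares. Right, histogram of features (y axis, number) by the difference of the mean over expressing cells (x axis, natural log), with a vertical line for each gene. The genes lie at 58.5 to 90.2% in c4 and at -1.50 to -1.16 in level, on either side of the median of the features at -1.35.

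The features with cluster means closest to those of btg2 were junbb, atf4b and jdp2b, at Euclidean distances of 0.41, 0.41 and 0.43 over the 5 clusters, where the median distance of the 1466 other features was 2.52. junbb and jdp2b encode Jun family and Jun dimerization factors, and atf4b a factor of the stress response. Their means in c5 were 2.15, 2.16 and 2.74, beside 1.07, 1.38 and 1.23 in c3. Those closest to zfp36l1b were jpt2, gmps and bhlhe41 (0.13, 0.14 and 0.15, median 0.85), of which gmps encodes GMP synthetase of purine synthesis and bhlhe41 a transcription repressor of the clock. Those closest to gadd45ba were cavin1b, vamp3 and thy1 (0.22, 0.24 and 0.25, median 1.28), which encode proteins of caveolae, of vesicle fusion and of the cell surface. Those closest to btg1 were pfn1, sparc and eef1g (0.25, 0.28 and 0.30, median 1.39), genes of actin, matrix and translation elongation. None of the 4 genes had another of the 4 among its 3 closest features. Only 3 of 1466 features were taken for each, and the distance grows with differences in abundance, so no conclusion is drawn from this.

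Other members of the families were rare or had low means. Of 7 measured (cth1, btg3, btg4, tob1a, tob1b, gadd45aa and gadd45ga), 2 passed the filter and none differed by 0.5 in any of the 5 comparisons. The 2 that passed, tob1a and gadd45ga, had means of at most 0.51 in any cluster, so a difference of 0.5 was hardly possible. tob1a, a relative of the BTG genes, was found in 18.1% of all cells, with means of 0.51 ± 1.14 in c5, 0.32 ± 0.93 in c3 and 0.46 ± 1.12 in c1 (SD over cells). gadd45ga was found in 12.7%, with means of 0.30 ± 0.98, 0.32 ± 1.00 and 0.22 ± 0.85. btg3 was in 6.94% of c5 cells and in 0% to 1.64% of the others.

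The decay machinery on which ZFP36 and BTG proteins act was found unevenly. Of 49 measured genes of deadenylation, decapping and decay, 4 passed the filter (pabpc1a, dcp1a, ddx6 and lsm7), as 7.37% of all features did. pabpc1a, which encodes a poly(A)-binding protein, was found in 63.9% of all cells and dcp1a, an activator of decapping, in 53.9%. Between c5 and c3 none of the 4 differed by 0.5, with a median of -0.089. The mean of lsm7 was at most 0.33 in any cluster, so it could not differ by 0.5. cnot1, the scaffold of the CCR4-NOT complex, was found in 6.19% of all cells and cnot7, a deadenylase subunit that BTG proteins bind, in 2.94%. dcp1a was the member past 0.5 elsewhere, higher in c2 by 0.55 and in c4 by 1.79 than in the pooled iridophore clusters. Of 47 other regulators of mRNA stability, 9 passed, and none differed by 0.5 in any comparison. Among these, qkia, hnrnpd and pcbp4 had means of at most 0.47 in any cluster, so such a difference was not possible for them. The highest means of caprin1b and upf3b were 0.60 and 0.50, so for these it was hardly possible. ybx1, which encodes an abundant mRNA-binding protein, was the most widely found, and its mean was 1.98 ± 1.87 in c5 against 1.69 ± 1.83 in c3 (SD over cells).

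Genes of growth arrest had mixed directions. Of 34 measured genes of cell cycle arrest and the p53 response, 6 passed the filter, with a median of -0.13 for c5 minus c3. The only one past 0.5 there was ccng1, a cyclin gene and p53 target in mammals, which was lower in c5, at 0.90 against 1.50, a difference of -0.60. It was found in 30.6% of c5 and 54.9% of c3 cells. cdkn1a, the p53-induced inhibitor of cyclin-dependent kinases, was found in 0.929% of all cells and in 0 of the 122, 82 and 72 cells of c3, c4 and c5. ddit3, a stress gene of growth arrest and DNA damage, had its highest mean in c5, at 1.49, against 1.29 in c3 and 0.93 in c1, so that in c1 against c5 it differed by -0.55, while ccng1 differed by 0.53. Of 31 proliferation genes, 3 passed (hmgb2a, tubb2b and hmgb2b), and none differed by 0.5 between c5 and c3, with a median of 0.0032. hmgb2a, the most widely found of them, differed by -0.46 there, with 51.4% of c5 and 66.4% of c3 cells. hmgb2a was lower by 0.5 or more in c2 (difference -0.83). mki67, which marks dividing cells, was found in 1.64 to 4.17% of cells of each cluster. Of 15 kinases of the MAP kinase pathways, 1 passed, map2k6, whose mean was 0.61 in c5 against 0.41 in c3, and map3k4 was found in 5.42% of all cells.

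Several other early response genes with short-lived mRNAs were higher in c5. Of 49 measured, 23 passed the filter, and 12 of these were higher in c5 than in c3 by at least 0.5 and none was lower, where 5.93% of all features were higher and 4.36% lower. The other 11 did not pass this limit. Of the 23, 15 were found in at least 25% of all cells, and among all features so found 13.6% were higher and 9.91% lower. The median of the 23 was 0.67 (0.11 with no filter on the share of cells). fosab, fosb and socs3a differed most, by 2.22, 1.83 and 1.57. In c1 against c5, 14 of the 23 were lower and none higher, with a median of -0.63 (-0.11 with no filter). Of all features 4.09% were lower there, and of those found in at least 25% of all cells 10.1%. In c1 against c3 none of the 23 passed, with a median of -0.037. The list was chosen with earlier results of these data known and shares no gene with the 7. gadd45ba, with a difference of -0.46 between c5 and c3, lay below all 23, whose lowest difference was 0.058, for jund.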

How the data were processed

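Single cells from 8 plates of sorted skin cells, 4 dark and 4 light, had been sequenced with unique molecular identifiers. The authors trimmed reads with Cutadapt 2.10, aligned and counted them with STAR 2.7.5a on GRCz11, removed low-quality cells, mitochondrial features and spike-ins, normalized with SCTransform in Seurat 3.1.4, and clustered on 10 principal components at a resolution of 0.8. Their deposited table gives, per cluster and for 19914 features, the number of cells and the percent in which a feature was above 0. The deposited mean and SD over those cells are on a natural log scale, of the depth-corrected count plus 1. A second deposited table, with the authors' fold changes and p-values for clusters 5 and 3, was not used. Total counts per cell were not analysed here.

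Means and SDs over all cells were rebuilt with Python 3.11.15 and pandas 2.3.3, which were tested on simulated data. Where at most 6 cells held a gene, whole-number corrected counts were solved from the mean and SD. A solution is given only where it was unique. Shares have exact Clopper-Pearson 95% intervals (SciPy 1.17.1). A feature was counted as higher or lower where the mean differed by at least 0.5, among the features found in at least 10% of all cells. This size is a fixed limit and not a test. Reads and clusters pool plates and fish, so no p-value was computed. The genes and 16 gene lists were chosen with earlier results of these data known. The genes named are the 7, the 3 features nearest to each of those that passed the filter in the distance of the 5 cluster means, and of each list up to 3 genes past 0.5 or else its most widely found gene. Others, named where a count is small, were picked once their values were known. Alternatives were other filters, a size of 1, a ratio of shares of 1.5, expressing cells only, and differences relative to the median of all features.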

Additional observations from a re-analysis of the deposited data

How the results depend on the processing

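The tables pool the plates by cluster, so leaving out a plate or fish was not possible. No paired analysis was possible because the deposited columns carry no replicate number. Of 70 counts of genes past the limit recomputed under the alternatives, 59 stayed within 1.5 times and 11 moved. The 59 include all 10 counts of each filter, which could not change, and counts of 0 that stayed at 0. They are therefore no measure of how robust the counts are. With a size of 1 in place of 0.5, 1 gene (btg2) was higher in c5 than in c3, as were 1.3% of features. At this size 0 genes were lower in c2, where 2.45% of features were. With a ratio of shares of 1.5, 1 gene (gadd45ba) was lower in c5 than in c3, as were 18.3% of features. For c2, this ratio gave 1 higher gene (btg1), with 2.52% of features higher, and 0 lower genes, with 32.0% of features lower. For c4, it gave 4 higher genes, with 90.3% of all features higher. Relative to the median of all features, 0 genes were lower in c2, where 5.66% of features were. With expressing cells only, 1 was higher in c1 than in c3 (zfp36l1b; 10.9% of features), 2 were lower in c1 than in c5 (btg1 and btg2; 14.0%), and 4 were lower in c2 (58.8%) and 4 in c4 (88.3%). The filters (none, 25% of all cells, 10% of either side) changed no count of the genes, and could not have done so. The 4 widely found genes pass each filter, and the 3 rarely found ones have means of at most 0.30, too low to differ by 0.5. The 25% filter did change the background, from 5.93% to 13.6% of features higher in c5 than in c3. With no filter, 4 list medians of at least 0.5 in size, each of 1 gene past the filter, changed sign, to -0.019 and -0.0052 (melanophore, c5 and c1 against c3), 0.00043 (keratinocyte, c1 against c5) and 0.0044 (melanophore, c2). Among the 240 recomputed list medians, 41 others, whose main size was under 0.5, also changed sign. Rare genes are limited by the number of cells. For gadd45bb, zfp36l1a and zfp36l2, 1 to 17 cells carry each cluster's value where any was found.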
